A study of Mus musculus with 3 samples.

Results

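Most of the genome's CpG dinucleotides have been lost, and many promoters are exceptions that sit in CpG islands, stretches of DNA that kept them. CpG-island promoters tend to be open in most cell types. Promoters poor in CpG lie mostly in front of genes used by few tissues or only after a stimulus, among them genes of inflammation, secreted and matrix proteins and the sensory receptors, and they are often closed elsewhere. The promoters described here are CpG-poor promoters that were nevertheless open in bulk samples labelled as Müller cells. Müller cells are the radial glia that span the retina, support its neurons and react to injury. Which cells of a sample gave a peak was not tested. A promoter was taken when the most 5′ annotated start site of a protein-coding gene (the first start site) had a CpG observed/expected ratio below 0.3 in the 1 kb window centred on it, and a DNase peak lay within 1 kb of that start site in all 3 replicates. The ratio compares the CpG dinucleotides found with the number the window's C and G content would give by chance. Genes whose start site lay within 1 kb of another gene's were left out. Of 17316 eligible promoters, 6858 were CpG-poor, and 1007 of these were open in all 3 replicates. The promoters were thus chosen by peak presence and CpG content, so their being open is a description and not a finding.

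DNase-seq marks chromatin that DNase I can cut. It was run on 1 group of 3 biological replicates of primary Müller cells from healthy mice of strain B6NCrl at 12 days after birth, males and females pooled. All replicates carry the same donor label, and the linked protocol is one for cultured cells, with no sort, culture time or treatment named. With no contrasting group, the values allow comparisons among promoters and among replicates only, and the spread between replicates may be partly technical. The deposited peak lists hold 300269, 281185 and 184544 peaks for replicates 1, 2 and 3, on mouse build mm10. Read depth is unknown. Each peak has a score, a whole number up to 150 in files whose peaks are 150 bp wide. What it counts is not stated, so it ranks peaks and is no measure of transcription. Over the eligible promoters of a list of Müller glia genes, 28 of 29 had a peak in each replicate. Over a list of macrophage and microglia genes, 42, 44 and 15 of 48 had one in replicates 1, 2 and 3, with summed scores of 3134, 2981 and 832. Over all eligible promoters 56.8% had a peak in all 3 replicates, and over CpG-poor ones 14.7%. CpG-poor promoters were 6 of the 29 and 38 of the 48, so the counts of the lists are not directly comparable. Of the defining genes of the macrophage list, Ptprc, Spi1, C1qa, C1qb, C1qc, Tyrobp and Csf1r had no promoter peak in replicate 3, and all but Csf1r had one in replicates 1 and 2. Cd68 and Itgb2, also of that list, had peaks in all 3 replicates, with scores of 44 and 63 in replicate 3. The peak of Itgb2 lay 919 bp downstream of the first start site.

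The contrast in base composition is visible in the 150 bases before the start site, shown here with each CG in capitals for 3 open CpG-poor promoters and 1 open CpG-rich one. Ccl2 encodes the monocyte-attracting chemokine CCL2 (chr11:82035421-82035570, plus strand), Cp the copper-carrying ferroxidase ceruloplasmin (chr3:19956904-19957053, plus strand) and Mlc1 a glial membrane protein (chr15:88979008-88979157, minus strand). Kcnj10, for the glial potassium channel Kir4.1 (chr1:172341060-172341209, plus strand), is the CpG-rich comparison, with a ratio of 0.65. Sequences were read from the RefSeq GRCm38.p6 assembly, which is mm10, 5′ to 3′ on the gene's strand, and end at the base before the start site.
Ccl2: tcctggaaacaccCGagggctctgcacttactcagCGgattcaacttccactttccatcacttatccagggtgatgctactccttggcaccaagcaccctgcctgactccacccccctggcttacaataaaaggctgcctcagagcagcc
Cp: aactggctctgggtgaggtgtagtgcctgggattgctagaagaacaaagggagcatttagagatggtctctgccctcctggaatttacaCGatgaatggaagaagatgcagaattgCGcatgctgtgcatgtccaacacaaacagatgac
Mlc1: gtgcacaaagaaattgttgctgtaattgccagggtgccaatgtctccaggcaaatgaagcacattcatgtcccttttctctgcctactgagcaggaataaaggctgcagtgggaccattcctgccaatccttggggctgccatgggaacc
Kcnj10: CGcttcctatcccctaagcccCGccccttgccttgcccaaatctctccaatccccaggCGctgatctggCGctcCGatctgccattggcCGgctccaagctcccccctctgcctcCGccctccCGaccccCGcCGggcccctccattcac
The stretch holds 2 CG in Ccl2, 2 in Cp, 0 in Mlc1 and 10 in Kcnj10. All 4 promoters had strong peaks. The scores in replicates 1, 2 and 3 were 142, 141 and 138 for Ccl2, 145, 140 and 112 for Cp, 133, 117 and 111 for Mlc1, and 133, 124 and 121 for Kcnj10.

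CpG-poor promoters were open far less often than the others. A peak lay in all 3 replicates at 14.7% of the CpG-poor promoters (1007 of 6858), at 65.7% of those with a ratio of 0.3 to 0.6 (2529 of 3850) and at 95.2% of those with 0.6 or more (6293 of 6608). Over all eligible promoters the share was 56.8%. Within the CpG-poor class the share went up with the ratio, from 4.59% below 0.1 to 13.1% at 0.1 to 0.2 and 25.1% at 0.2 to 0.3. The next step, 0.3 to 0.4, stood at 43.0%, so the limit of 0.3 cuts a continuous slope. Single replicates had a peak at 24.6%, 23.8% and 16.4% of CpG-poor promoters (mean 21.6% ± 4.51, SD, n = 3).

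**Figure D1:**
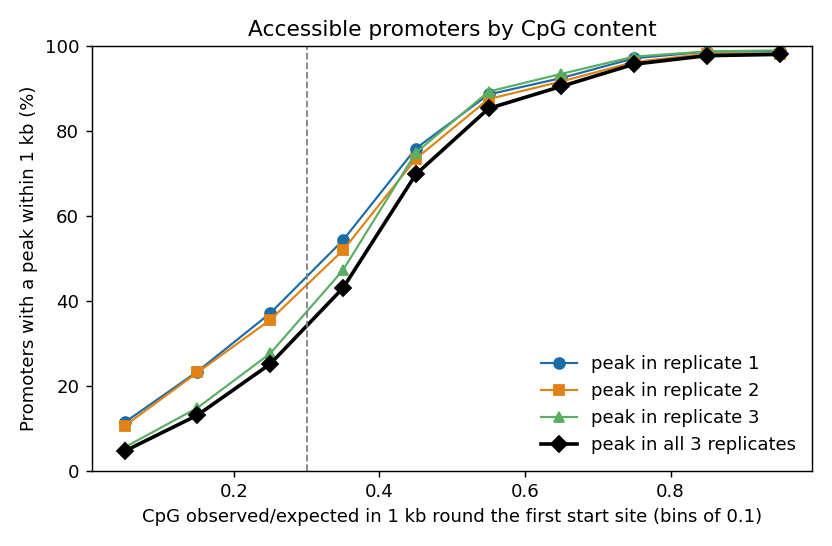
Percent of eligible promoters with a DNase peak within 1 kb of the first start site (vertical axis) in bins of the CpG observed/expected ratio (horizontal axis, dashed line at 0.3), for each replicate (coloured lines) and for all 3 replicates together (black). The black line climbs from 4.59% in the lowest bin to 98.1% in the highest one, and replicate 3 lies below the other replicates only in the low bins.

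The CpG ratios of the promoters on either side of the limit differ little. Just under 0.3 were 3300002I08Rik, Cpq, Dhx32, Slc25a45 and Cdk15. Slc25a45 had the strongest peaks of these, with scores of 146, 144 and 132. Just above it, and therefore not counted, were the open promoters of Trim34a, Atpaf2, Gkap1, Slc44a4 and Col1a1. Col1a1, a chain of collagen I, scored 117, 105 and 93 and Trim34a 132, 117 and 85. At the other end, 4931408C20Rik has no CpG in its 1 kb window and scored 48, 31 and 25. Olfr536, Trim30d, Gm17677 and Ifna16 have the next lowest ratios, and the highest scores among them were the 81, 65 and 41 of Trim30d. For the limit of 1 kb, the farthest accepted peak edges lay 999 bp from the start site of Cyp2w1 and 995 bp from that of Cd28, and the nearest refused one 1003 bp from that of Por.

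Where CpG-poor promoters were open, their strongest peaks had lower scores than those of CpG-rich promoters. Their median scores were 82, 68 and 53 (replicates 1, 2 and 3 in order; mean 67.7 ± 14.5, SD, n = 3). Medians were 102, 89 and 88 in the class from 0.3 to 0.6 and 128, 120 and 118 in the CpG-rich class. The difference between CpG-poor and CpG-rich medians was -46, -52 and -65 (mean -54.3 ± 9.71, SD, n = 3). It had the same sign in 3 of 3 replicates, and an exact two-sided sign-flip permutation test gave p = 0.25, the smallest that 3 replicates allow. A peak in every replicate was required in both classes, so the scores are partly selected by that rule and the difference is a description. Each score is also the highest of all peaks in the window. CpG-poor promoters had a mean of 1.62, 1.59 and 1.42 peaks there, against 2.44, 2.36 and 2.07 at CpG-rich ones. The part of this in the score difference was not tested. The distributions overlapped: scores of 120 or more were reached by 14.8%, 7.55% and 4.97% of the CpG-poor promoters and by 62.6%, 51.0% and 46.9% of the CpG-rich ones. Over the 1007 promoters scores ran from 18 to 148, from 16 to 146 and from 7 to 147. The weakest were Cyp4f15 in replicate 1, Gcsam in replicate 2 and the vomeronasal receptor gene Vmn1r210 in replicate 3. All 1007 lay in a hotspot, the wider regions of the deposited data, in every replicate. So did all open promoters of the other classes, so this does not set the CpG-poor ones apart. The hotspot's −log10 q was at its cap of 100 for 82.5%, 77.9% and 58.5% of them, against 96.1%, 93.6% and 96.6% of the CpG-rich promoters.

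**Figure D2:**
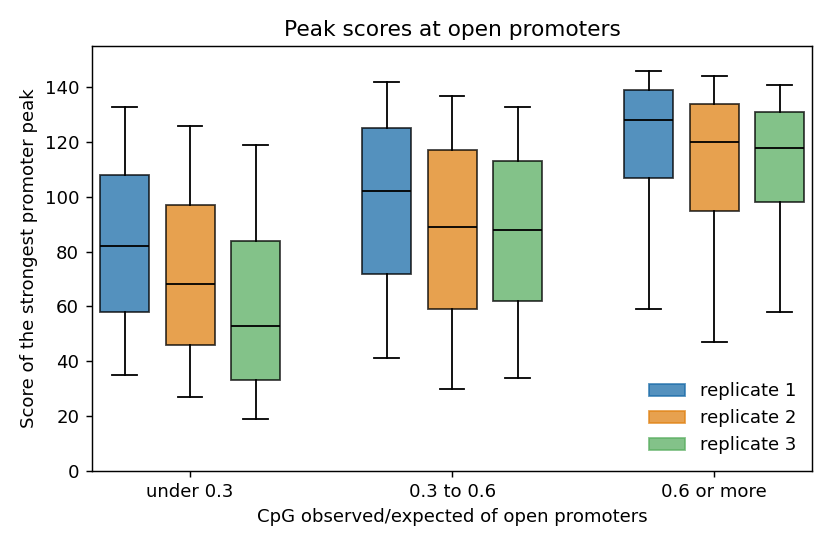
Scores of the strongest peak within 1 kb of the first start site (vertical axis) for open promoters in 3 classes of CpG observed/expected (horizontal axis), by replicate; lines are medians, boxes quartiles and whiskers the 5th and 95th percentiles. Medians are 82, 68 and 53 for the 1007 CpG-poor promoters and 128, 120 and 118 for the CpG-rich ones, and the boxes of replicate 3 reach lowest in the CpG-poor class.

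The peaks of CpG-poor promoters also lay farther from the first start site. The median distance of the strongest peak's centre was 253, 266 and 248 bp (mean 255.7 ± 9.29, SD, n = 3), against 101, 100 and 94 bp in the middle class and 67 bp in each replicate in the CpG-rich class. Among CpG-poor promoters 49.9%, 48.8% and 50.3% of the centres were within 250 bp, compared with 82.2%, 82.2% and 83.0% among CpG-rich ones. Beyond 500 bp were 37.0%, 37.8% and 37.3% of the former and 7.55%, 7.31% and 6.31% of the latter. The open CpG-poor promoters thus hold a group of 440 with the strongest peak within 250 bp in all 3 replicates, 43.7% of the total and 6.42% of all CpG-poor promoters, and 567 others. Median scores of these groups differed by 2, 2.5 and 2 in the 3 replicates.

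**Figure D3:**
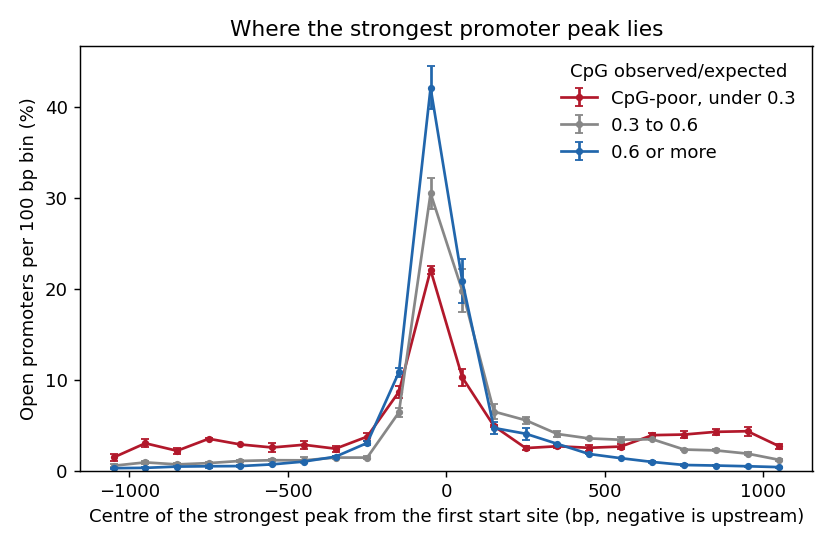
Position of the strongest peak's centre relative to the first start site (horizontal axis, bp in bins of 100) and percent of open promoters in each bin (vertical axis), as mean and SD of 3 replicates for 3 CpG classes. All classes are highest just upstream of the start site, and the CpG-poor line stays above the CpG-rich one beyond 500 bp on both sides.

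Some of these peaks lay nearest to other start sites, as in the other classes. In replicate 1 the strongest peak was nearest to the first start site for 745 of the 1007 genes (74.0%), to another annotated start site of the same gene for 236 (23.4%) and to one of another gene for 26 (2.58%). Around that peak the CpG ratio was itself below 0.3 for 81.0% of the promoters and 0.6 or more for 47, or 4.67%. None of those 47 was among the 440 near promoters. A further start site with a ratio of 0.6 or more belonged to 16.0% of the genes with an open CpG-poor promoter and to 5.96% of those whose CpG-poor promoter was not open in all replicates. The strongest peaks of the 3 replicates overlapped for 84.2% of the open CpG-poor promoters, beside 83.8% in the middle class and 86.8% in the CpG-rich class.

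Ranked by their worst rank over replicates, the first 12 were Cbarp, Hspb2, Sod2, Slc25a45, Ccl2, Maff, Zfp46, Lgals12, Angptl2, Lgals2, Cpsf4l and Slc26a6. In replicate 1 the strongest peak was nearest to the first start site for 4 of these 12, to another start site of the gene for 6 and to one of another gene for 2. The peak of Cbarp (145, 142 and 138) was nearest to a start site of Atp5d, a subunit of mitochondrial ATP synthase. That of Hspb2 (143, 141 and 147) was nearest to one of Cryab, the small heat shock protein αB-crystallin. Sod2, the mitochondrial superoxide dismutase (143, 140 and 139), and Maff, a small Maf transcription factor (144, 138 and 131), had theirs 985 and 910 bp downstream, near another start site of the gene, where the CpG ratio was 0.82 and 0.88. The peak of Ccl2 lay 80 bp upstream of the first start site in replicate 1, that of Angptl2 (139, 142 and 139), a secreted angiopoietin-like protein, 118 bp upstream, and that of Cpsf4l (138, 136 and 136) 134 bp upstream. The CpG ratio around these 3 peaks was 0.14, 0.24 and 0.26.

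Genes that mark Müller glia and astrocytes made up a small but mostly open group. The lists of marker genes were drawn up with earlier results of these data known, so their counts are descriptions, read beside the 14.7% of all CpG-poor promoters. That share includes 1099 promoters of olfactory receptor genes, open at 2.09%, and 1206 of unnamed gene models, open at 5.72%. Of the Müller glia list, 6 genes have a CpG-poor first promoter and 5 of them were open. Besides Cp these were Ptgds, a prostaglandin D synthase (114, 106 and 96), Rlbp1, the retinaldehyde carrier of the visual cycle (107, 93 and 109), Nfib, a nuclear factor I transcription factor (114, 102 and 64) and Abca8a, a lipid transporter (78, 68 and 30). The peak of Nfib was 819 bp downstream of the first start site in replicate 1. The sixth, the water channel gene Aqp4, had no peak within 1 kb of its first start site in any replicate. Of the astrocyte list 4 of 5 were open, again all but Aqp4. Gfap, the intermediate filament of reactive glia, scored 135, 122 and 85, Aldoc, a brain aldolase, 103, 96 and 94, and S100b, a calcium-binding protein of astrocytes, 45, 30 and 42. S100b was the lowest of these astrocyte genes in every replicate. Outside the lists, Fabp7, a fatty acid carrier of radial glia, was at 93, 88 and 94 with its peak 50 bp upstream.

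Promoters of genes that glia turn on after injury were open in 6 of 11 cases. Besides Ccl2 and Gfap they were Timp1, an inhibitor of matrix proteases (119, 106 and 98), Cntf, a neurotrophic cytokine (115, 105 and 118), Gbp2, an interferon-induced GTPase (89, 73 and 50), and C4b, a complement component (21, 19 and 21). Ccl2 and Cntf had nearly the same score in all replicates, and C4b was low in all 3. Atf3, C3, Lcn2, Lif and Serpina3n were not open in all 3 replicates, and without replicate 3 the count was 9 of 11. Il33, an alarmin of glia and barrier cells, scored 82, 76 and 76. Plat, the tissue plasminogen activator, reached 144, 118 and 126.

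The fibroblast and matrix list had 6 of 9 CpG-poor promoters open, with Ogn (119, 106 and 78) and Dcn (85, 57 and 70), small leucine-rich proteoglycans, Col6a1 (94, 86 and 104), and, far weaker, Col1a2 (49, 28 and 48) and Postn, which encodes periostin (35, 19 and 24). The peak of Col1a2 lay 657 bp from the first start site. Collagen genes as a family had 5 of 11 open (45.5%), Col22a1 and Col4a6 among them. Of 16 EMILIN, CCN and leucine-rich matrix genes 10 were open. This grouping was added after the values were seen. It includes Podnl1 (145, 136 and 118), Emilin1 (120, 117 and 127), Ccn5 (121, 104 and 121) and Ccn4 (127, 117 and 110). The smooth muscle genes Acta2, which encodes an actin also made by myofibroblasts (138, 131 and 106), and Cnn1, a calponin (127, 120 and 94), were open, 2 of 5 in the pericyte and smooth muscle list. Fibroblast list genes, CpG-poor or not, had promoter peaks at 19, 18 and 17 of 21 in the 3 replicates, with summed scores of 1736, 1484 and 1499. The part of such cells in these values was not tested.

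Of 8 galectin genes with CpG-poor promoters 6 were open, a grouping likewise added after the values were seen. Lgals1 scored 127, 107 and 130, Lgals3 108, 91 and 94, and Lgals9 125, 112 and 85. Of the 6, 1 had its strongest peak within 250 bp of the first start site in all replicates. The peaks of Lgals12 and Lgals2 lay 782 bp downstream and 282 bp upstream. Of 10 S100 genes 5 were open, led by S100a4 (129, 126 and 117) and S100a16 (120, 111 and 119). S100a8, a neutrophil protein, stood at 87, 71 and 28. Aldehyde and alcohol dehydrogenases were open at 5 of 10, including Aldh1a1, a retinoic acid synthesising enzyme (97, 78 and 72). No member of this family had its strongest peak within 250 bp of the first start site in all replicates.

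**Figure D4:**
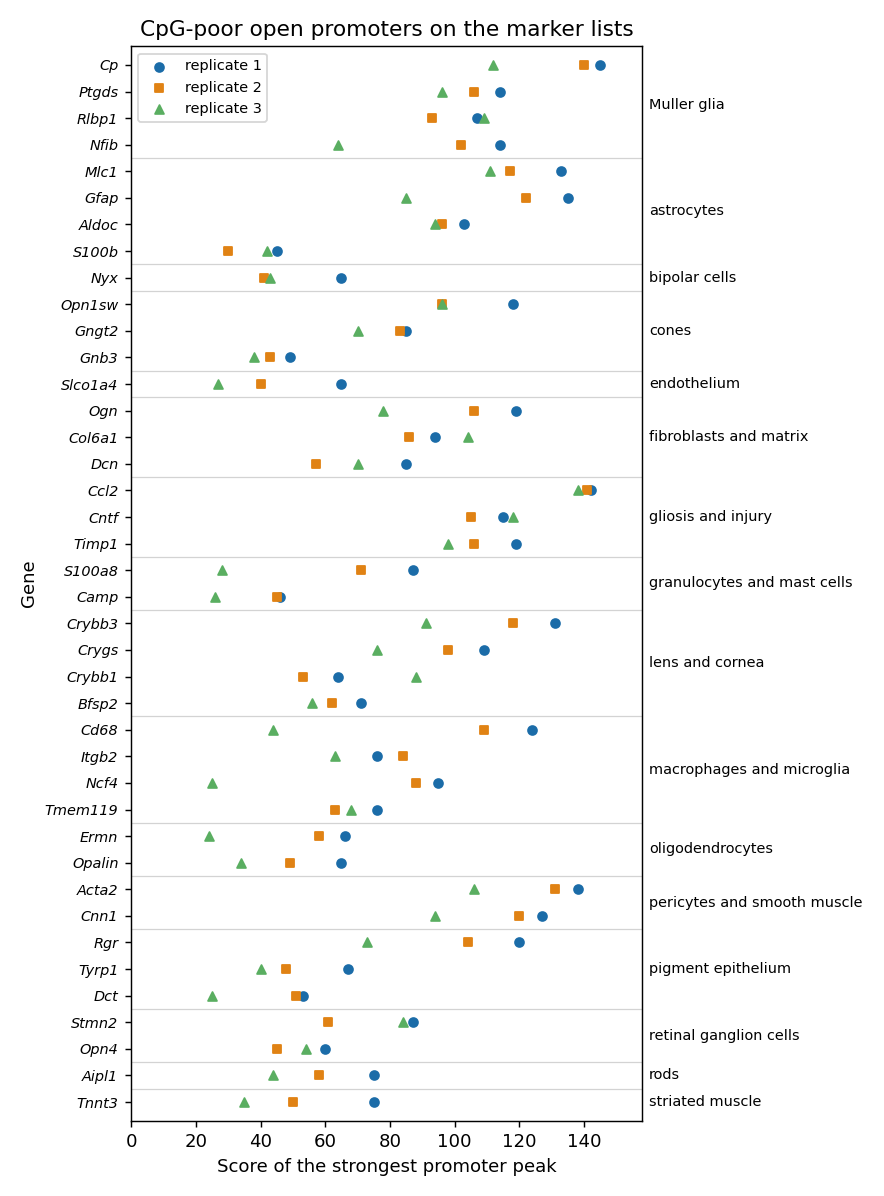
Scores of the strongest promoter peak (horizontal axis) in replicates 1, 2 and 3 (circles, squares, triangles) for the open CpG-poor promoters of the marker lists, up to 4 genes a list (Ccl2 and Gfap drawn once). The triangles of replicate 3 lie close to the others for Ccl2, Aldoc and Cntf and far to the left for Cd68, Ncf4 and S100a8. For Ncf4 the strongest peak of replicate 3 lay elsewhere in the promoter window.

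Interferon genes and interferon-induced genes together were open at 17 of 55 CpG-poor promoters (30.9%) and at 28 of 55 in replicates 1 and 2 taken alone, where the share of all CpG-poor promoters is 21.7% (1489 of 6858). The open interferon-induced genes included Ifi35 (117, 106 and 96), Ifi47 (125, 106 and 70), Ifi204 (127, 112 and 68), Isg15 (103, 88 and 57), Ifi27 (122, 104 and 36) and Mx1 (68, 56 and 30). Every one of these 6 was lowest in replicate 3, as were 719 of all 1007 open CpG-poor promoters (71.4%). Interferon genes themselves were weak: Ifnb1 scored 70, 39 and 36 with its peak 717 bp upstream, Ifna13 34, 35 and 40, and Ifna16 43, 26 and 19. Chemokine and chemokine receptor genes were open at 9 of 43 (20.9%). Ccl2 and Ccl7 (125, 110 and 73), neighbours on chromosome 11, had peaks 80 and 81 bp upstream in replicate 1. Ccl17 scored 108, 97 and 80. Ccl3, a macrophage chemokine, scored 99, 100 and 17, and Ccr1 96, 84 and 25. Antigen presentation genes of MHC class II, grouped with the invariant chain Cd74 after the values were seen, were open at 6 of 9 promoters, all 6 with the strongest peak within 250 bp in every replicate. Their scores ranged from 112, 97 and 73 at H2-Eb1 to 70, 52 and 35 at Cd74, again lowest in replicate 3, like most of the 1007 promoters.

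Ccl7 and Isg15 are printed as examples of inducible genes with motif letters close to the start site. Binding to these letters was not measured. Ccl7 (chr11:82045562-82045711, plus strand) has the AP-1 motif TGANTCA as TGATTCA starting 69 bases upstream and a TATA box, TATAAA, starting 30 bases upstream. Isg15 (chr4:156200819-156200968, minus strand) has 3 overlapping matches to the interferon regulatory factor motif, starting 78, 72 and 66 bases upstream. Matches are in capitals.
Ccl7: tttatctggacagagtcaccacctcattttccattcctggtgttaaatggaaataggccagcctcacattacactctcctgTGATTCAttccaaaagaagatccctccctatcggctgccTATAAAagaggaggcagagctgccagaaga
Isg15: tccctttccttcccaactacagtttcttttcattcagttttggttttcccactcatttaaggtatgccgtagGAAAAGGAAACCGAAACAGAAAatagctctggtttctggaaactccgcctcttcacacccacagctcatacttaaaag
The same interferon motif was found in the 300 bp promoter of 7 of the 17 open interferon-family genes and of 23 of the 38 that were not open. It was in 5.16% of all open CpG-poor promoters and in 3.71% of all eligible promoters.

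Immune-cell genes divided the replicates. The macrophage and microglia list has 38 CpG-poor promoters. Peaks lay at 32, 34 and 7 of them in replicates 1, 2 and 3, and 7 were open in all 3 replicates. Without replicate 3 the count was 32, while without replicate 1 or replicate 2 it stayed at 7. Among the 7 were Cd68, a lysosomal glycoprotein of macrophages (124, 109 and 44), Itgb2, the β2 integrin chain (76, 84 and 63), Ncf4, a subunit of the phagocyte oxidase (95, 88 and 25), Cd180 (84, 71 and 34), Lyz2, lysozyme (69, 66 and 31), and Tmem119, a microglial membrane protein (76, 63 and 68). Of these, all but Tmem119 were lowest in replicate 3, as were 71.4% of all 1007 open CpG-poor promoters. The strongest peak of Ncf4 lay 70 bp downstream of the first start site in replicates 1 and 2. In replicate 3 it was a different peak, 790 bp upstream. The peak of Itgb2 lay 919 bp downstream in all 3 replicates, nearest to another start site of the gene. Of the 7 promoters, 5 had the strongest peak within 250 bp in all replicates. Genes of leukocyte immunoglobulin-like and Siglec receptors were open at 8 of 50 (16.0%), and at 25 of 50 without replicate 3, beside 21.7% of all CpG-poor promoters without that replicate. Fcgrt, the neonatal Fc receptor of many tissues, was the strongest of them (136, 130 and 95), and Trem1 was at 83, 68 and 11. CD antigens changed from 8 to 18 of 46 without replicate 3, matrix and ADAM proteases from 6 to 16 of 32, and complement and coagulation genes from 12 to 21 of 37. In the complement family C1qtnf5, a secreted C1q-related protein, was strong and even (126, 123 and 118) and C5ar1 was at 55, 50 and 16. S100 proteins, collagens and galectins had the same counts with and without replicate 3. No gene of the lymphocyte list was open in all 3 replicates, of 19 CpG-poor ones, and 4 had peaks in replicates 1 and 2. The summed scores over all 48 eligible promoters of the macrophage list, 3134, 2981 and 832, differed between replicates in the same direction, and the part of such cells in the scores of other promoters was not tested. In a bulk sample, fewer cells of a type and less open chromatin per cell cannot be told apart.

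Nckap1l, a subunit of the WAVE actin complex in blood cells, had the largest range of all 1007 promoters, with scores of 102, 98 and 9. Its promoter (chr15:103453644-103453793, plus strand) is printed as the one that differed most between replicates, with GAGGAAGT, the core bound by PU.1 and related ETS factors, in capitals 141 bases upstream.
Nckap1l: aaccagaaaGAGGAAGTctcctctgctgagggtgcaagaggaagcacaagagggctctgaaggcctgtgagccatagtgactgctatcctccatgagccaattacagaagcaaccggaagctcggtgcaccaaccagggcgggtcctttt
These letters were found in the 300 bp promoter of 4.37% of the open CpG-poor promoters, 5.06% of the CpG-poor promoters that were not open and 3.41% of all eligible ones. After Nckap1l the largest ranges belonged to Gm11444 (119, 101 and 27), Ifi27, Gm10643 (103, 60 and 19) and Ccl3. The strongest peak of Gm11444 lay 1062 bp downstream of the first start site in replicates 1 and 2. In replicate 3 it was a different peak, upstream of that site, so the range of Gm11444 does not compare the same peak. All 5 promoters had their lowest score in replicate 3. Fewer promoters went the other way. Col22a1, a collagen of tissue junctions, scored 39, 37 and 81, and Ldb2, a LIM domain binding cofactor, 61, 54 and 99.

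Across the 1007 promoters replicate 3 held the lowest score at 719 (71.4%) and the highest at 103 (10.2%). In the CpG-rich class these shares were 48.7% and 19.1%. Spearman's rho across promoters, which are not independent replicates, reached 0.96 for replicates 1 and 2, and 0.77 for replicate 3 with either of them. For CpG-rich promoters these values were 0.96, 0.88 and 0.88. A peak in replicates 1 and 2 and none in replicate 3 was found at 482 CpG-poor promoters, 7.03% of them, against 3.67% of all eligible promoters. Only 37 and 24 CpG-poor promoters lacked a peak in replicate 2 or in replicate 1 alone. With the same number of strongest peaks taken from each replicate, the 482 became 252.

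Of the rod list 1 of 10 CpG-poor promoters was open, that of Aipl1, a chaperone of the phosphodiesterase (75, 58 and 44), while Crx, Nrl and Sag were not. Cone genes were open at 3 of 8, namely Opn1sw, the short-wave opsin (118, 96 and 96), and the transducin subunits Gngt2 (85, 83 and 70) and Gnb3 (49, 43 and 38). Retinal ganglion cell genes were open at 2 of 3, Opn4 and Stmn2 (87, 61 and 84), bipolar cell genes at 1 of 6 and amacrine and horizontal cell genes at 0 of 3. The open bipolar cell gene was Nyx, with its peak 721, 741 and 801 bp downstream. The strongest peak of Stmn2 lay 151, 171 and 931 bp downstream in replicates 1, 2 and 3, so replicate 3 scores a different peak. Among non-visual opsins, Rgr, the photoisomerase of pigment epithelium and Müller glia, scored 120, 104 and 73, and Opn4, melanopsin, 60, 45 and 54. Pigment epithelium genes were open at 3 of 6. Besides Rgr, the pigment genes Tyrp1 (67, 48 and 40) and Dct (53, 51 and 25) were open and Tyr, Mlana and Rpe65 were not. Lens genes were open at 5 of 11, among them the crystallins Crybb3 (131, 118 and 91, with a peak 967 bp upstream), Crygs (109, 98 and 76) and Crybb1 (64, 53 and 88). Endothelial genes were open at 1 of 7, liver genes at 0 of 11 and striated muscle genes at 1 of 6. Without replicate 3, liver genes were open at 2 and striated muscle genes at 2.

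The large families of sensory receptors mostly had no shared peak. Olfactory receptor genes supply 1099 of the CpG-poor promoters, of which 23 were open (2.09%), or 41 without replicate 3. The strongest of them were Olfr552 (94, 91 and 75) and Olfr16 (104, 76 and 64), the latter 982 bp from its peak. How reads from near-identical gene copies were placed is not given in the labels. Vomeronasal receptors were open at 3 of 320 promoters. One of these, Vmn1r40, had the highest score of all 1007 promoters in replicate 1 (148, 146 and 121), with its peak 729 bp upstream of the start site. Taste and trace amine receptors were open at 0 of 48, cathepsins and cystatins at 0 of 27, and unnamed RIKEN and Gm gene models at 69 of 1206 (5.72%). Keratin genes were open at 4 of 73, none of them with the strongest peak within 250 bp in all replicates. Cytochromes P450 were open at 11 of 72 (15.3%) and solute carriers at 14 of 94 (14.9%), both near the background of 14.7%. That background includes the sensory receptor genes and gene models, whose low shares pull it down. Other families of transport and metabolism lay farther from it, with ABC transporters at 3 of 9 and UDP-glucuronosyl and sulfotransferases at 2 of 33. In the P450 family Cyp4f13 (128, 115 and 119) and Cyp2j13 (123, 110 and 109) were far above Cyp4f15 (18, 23 and 20). Potassium channels were open at 8 of 27 (29.6%), among them Kcnj13 (66, 59 and 49), for the Kir7.1 channel of pigment epithelium.

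**Figure D5:**
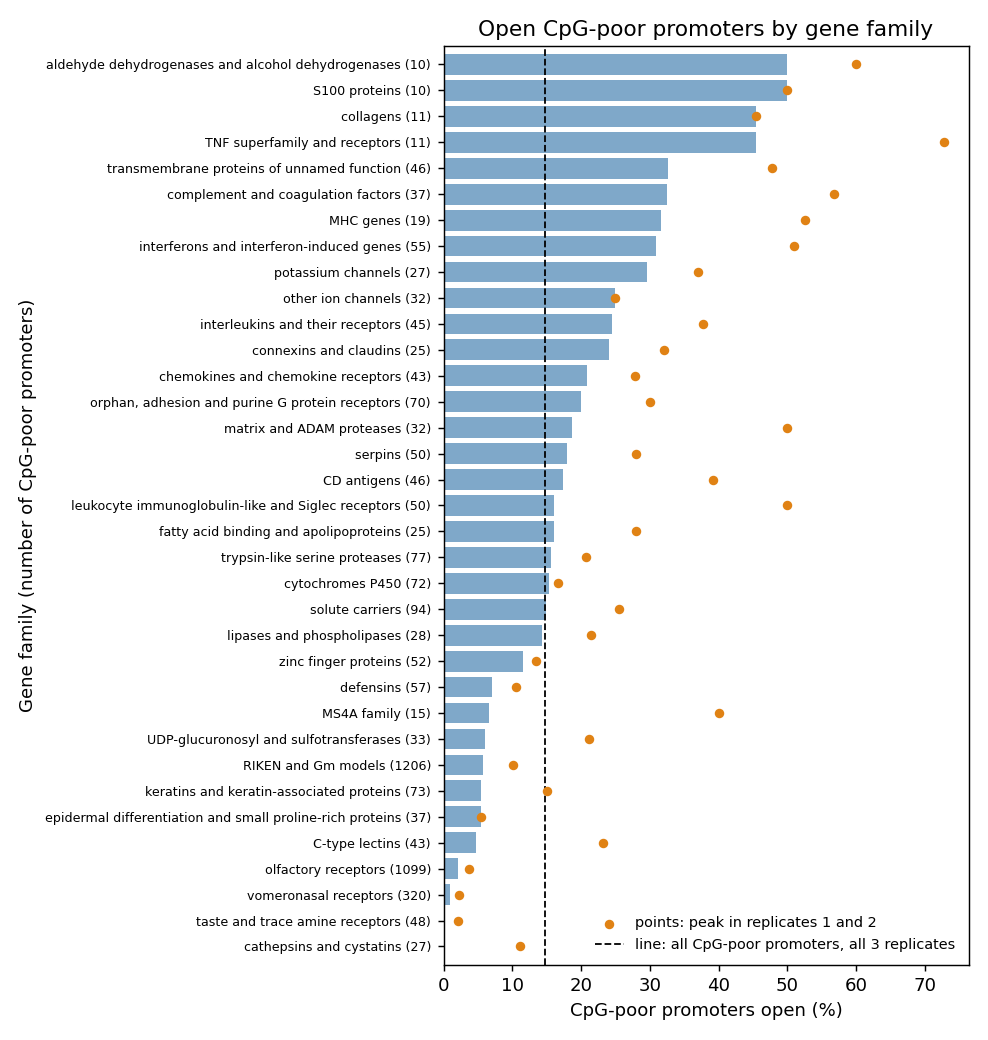
Percent of CpG-poor promoters open in all 3 replicates (bars) and with a peak in replicates 1 and 2 (points) for gene families with at least 10 CpG-poor promoters, whose number is in parentheses; the dashed line is the 14.7% of all CpG-poor promoters. Families added after the values were seen are not drawn. Among those drawn, aldehyde dehydrogenases and S100 proteins lead with 5 of 10 promoters, olfactory receptors stand at 2.09%, and the points of the leukocyte receptor families lie far to the right of their bars.

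Short sequence motifs were searched on both strands, first in the 150 bp of the strongest peak of replicate 1. A match is a description of letters and not of binding. AP-1 letters (TGANTCA) were in 16.8% of the peaks of open CpG-poor promoters, 5.42% of the middle class and 2.80% of CpG-rich ones, beside 21.8% of 121123 distal peaks shared by all replicates. In the 440 near promoters the share was 12.7%. The nuclear factor I letters TTGGCA were in 13.2%, 7.95% and 4.69% of the 3 promoter classes and 17.8% of distal peaks, and the SOX letters ACAAAG in 13.4%, 7.47% and 4.67%, and 17.7%. For these 3 motifs the open CpG-poor promoters stood between CpG-rich promoters and distal peaks. The order was not particular to them. The TEAD letters ACATTCC were in 1.21% of CpG-rich peaks, 6.95% of CpG-poor ones and 7.84% of distal peaks, and the GATA letters AGATAA in 0.89%, 3.67% and 5.73%. The E box CAGCTG was in 17.3% of their peaks and in 88 of the 440 near ones, beside 13.2% of distal peaks. The KLF/SP letters GGGGCGGGG were in 2.78% against 18.6% of CpG-rich peaks, and the ETS letters CCGGAAGT in 0.60% against 6.53%. Both contain CG, which the choice of promoters limits. Base composition also differed: the median GC content of these peaks was 52.7% in CpG-poor, 62% in middle, 68% in CpG-rich promoters and 48% in distal peaks, and its part in the motif shares was not tested.

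In the promoter window, 250 bases before to 50 after the start site, open CpG-poor promoters can be set against CpG-poor promoters that were not open in all replicates. AP-1 letters were in 13.1% of the open ones (95% Wilson interval 11.2 to 15.3) and 11.1% of the others (10.4 to 12.0), beside 1299 of all 17316 eligible promoters. Among the near ones the share in this window was 15.7% (12.6 to 19.4). The nuclear factor I letters were in 19.1% of the open and 19.6% of the other CpG-poor promoters (all eligible, 14.5%), and the SOX letters in 23.3% and 25.8% (all, 19.0%). A TATA box in the 50 bases upstream was in 5.16% and 7.08%, beside 3.82% of all. The E box CAGCTG was in 23.6% of the open and 16.7% of the other CpG-poor promoters, and in 27.7% of the near ones (all eligible, 16.1%). The short CTCF core AGGGGGC was in 9.63% and 2.91% (all, 11.2%), and GGGGCGGGG in 4.07% and 0.96% (all, 13.4%). In the other direction, the GATA letters AGATAA were in 12.1% and 17.9% (all, 11.2%), and the homeobox letters TAATTA in 5.96% and 11.2% (all, 6.01%). The intervals cover counting error only, and neighbouring gene copies share sequence. The part of base composition in these shares was not tested either.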

How the data were processed

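DNase-seq of 3 replicates of 1 group of mouse Müller cells was used. Per the labels, coordinates are on mm10, and the authors deposited a peak list and a hotspot list for each replicate. The deposited peak value is a score (whole numbers, meaning not stated), and the deposited hotspot value is a −log10 q-value capped at 100. No aligner, peak caller or depth is given in the sources used here. Any peaks repeating another's position (21, 20 and 23) were removed. Start sites came from GENCODE M21 and sequence from RefSeq GRCm38.p6, whose chromosomes hold all deposited peaks. Of 21938 protein-coding genes, 4611 were left out for a neighbouring start site and 11 for over 10% unknown bases. A promoter's score is that of its strongest peak within 1 kb in each replicate, which need not be the same peak in all replicates. The members, gene lists, families and motifs were chosen with earlier results of these data known, so nothing is tested on the lists, families or motifs. Of 420 listed genes 416 were found by symbol, and 336 of the 1007 promoters matched one of 42 families. Named genes were the 12 with the best worst rank, list members (at most 4 a list by mean score), the 5 with the largest range, the 5 on each side of the limit of 0.3 and the 5 lowest ratios. Other genes named, with the families marked as added, were chosen after their values were seen. A few genes that these rules name are not reported here. The single test, on the scores of the chosen promoters, is an exact sign-flip permutation over replicates, since replicates of 1 group allow no other comparison. The peak search was checked on simulated peaks. Python 3.11.15, pandas 2.3.3, numpy 2.4.6, scipy 1.17.1, pysam 0.24.0 and matplotlib 3.10.9 were used.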

Additional observations from a re-analysis of the deposited data

How the results depend on the processing

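The number of open CpG-poor promoters, 1007 as reported, was 477 and 1588 with a ratio limit of 0.2 and 0.4, 594 with the peak within 250 bp and 585 with the strongest 50% of peaks. Under the other 13 alternatives it was within 1.5 times, and leaving out 1 replicate gave 1031 to 1489. The score difference from CpG-rich promoters was negative under all 16 alternatives run, from -61.5 to -33.7 (without 1 replicate, -61.5 to -56.5). The median distance, 255.7 bp, was 296 and 214.3 bp with limits of 0.2 and 0.4, 330.7 and 162.2 bp with CpG windows of 500 bp and 2 kb, 72.2, 103.7 and 812.5 bp with peaks within 250 bp, 500 bp and 2 kb, 278 bp with the strongest 50% of peaks, 240 bp with equal peak numbers and 241.8 bp from the first protein-coding start site; leaving out 1 replicate gave 246.5 to 258.5 bp. The search window sets the range these distances can take, and other causes were not tested. Hotspots in place of peaks gave 1084 promoters.

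The following were added after seeing the data. The 482 promoters with peaks in replicates 1 and 2 alone became 252 with equal peak numbers and 333 with the strongest 50%. Listed genes with an open promoter, 50 of 185, were 22 at a limit of 0.2 and 50 to 91 without 1 replicate, 91 being without replicate 3. Planned motif alternatives moved the share with AP-1 letters from 13.1% to 16.8% in the peak itself and 15.9% at a limit of 0.2, and leaving out 1 replicate gave 13.0% to 13.9%. No paired analysis was possible because the series has 1 group. Peaks are lists above a threshold at unknown depth, so a missing peak, above all in replicate 3 with its shorter list, does not show closed chromatin, and p cannot go below 0.25.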
